A study of Mus musculus with 6 samples.

Results

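The genes described here are 10 markers of spiral ligament fibrocytes, namely Coch, Otos, Otor, Pou3f4, Tbx18, Slc1a3, Cp, S100a1, Dpp10 and Tgfbi. They were measured in mouse cochlear lateral wall by every probe set of the array whose annotation gives one of these symbols and no other, which were 29 of 45037 probe sets and 10 of 18193 genes. The mice were of the CBA/CaJ strain, and 3 arrays of old adults, aged 1.5 years, were set against 3 arrays of young adults, aged 1 to 3 months. No treatment, transgene or mutation separates the ages in the labels, and mice of both sexes were used at each age as far as the labels say. Triplicates are described as experimental, and neither separate animals nor pools are named. The p-values therefore measure only the spread between these samples, which may be partly technical. One-colour Affymetrix arrays were used, on which a probe set is a group of short probes for one stretch of a transcript, and values are log2 signals. Differences are old minus young, with the standard error (SE) or the 95% interval from a limma fit over all probe sets and a p-value after Benjamini-Hochberg adjustment across the whole array, called when under 0.05.

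The spiral ligament is the connective tissue that anchors the stria vascularis to the bony wall of the cochlea. Its fibrocytes are classed into types by position and by the ion transporters they carry, and they take up potassium from the perilymph and pass it through gap junctions towards the stria. They also lay down the extracellular matrix of the ligament. The 10 genes fall into secreted and matrix proteins (Coch, Otos, Otor, Tgfbi), transcription factors of the otic mesenchyme from which fibrocytes arise (Pou3f4, Tbx18), and proteins of transport, metal and calcium handling or channel regulation (Slc1a3, Cp, S100a1, Dpp10).

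The arrays resembled each other in level, with medians of 6.26 to 6.30 and maxima of 14.72 to 14.76. Young replicate 2 stood apart in Xist, which silences an X chromosome in females. Xist read 12.24 to 12.65 on the old arrays, 11.95 and 12.31 on young replicates 3 and 1, and 6.06 on young replicate 2. This sets young replicate 2 apart from the other arrays in sex make-up, and no old array read so low. The part of sex in the results was not tested. On the first principal component, with 52.2% of the variance, old arrays scored 24.01 to 27.84 and young replicates 1, 2 and 3 scored -38.58, -11.56 and -28.01. The excess of 3′ over 5′ control probe sets was 1.26 to 1.45 in old and 1.07 to 1.25 in young arrays for Gapdh, and 1.39 to 1.84 in old and 1.46 to 1.60 in young arrays for Actb (exact 2-sided permutation p = 0.1, the smallest possible with 3 against 3, and 0.4). Markers of other tissues also moved with age (of all genes, by brightest probe set, 2.33% were called lower and 2.45% higher). Of 7 measured bone markers 3 fell, and their mean signal was 7.0 to 7.88 in old and 8.19 to 8.74 in young arrays. Of 7 marrow myeloid markers 5 fell, with means of 5.88 to 6.19 in old and 6.71 to 7.24 in young arrays. Of 6 mural cell markers 2 fell (8.58 to 8.64 in old, 8.88 to 9.24 in young), and of 8 macrophage markers 1 rose (7.88 to 8.04 in old, 7.69 to 7.78 in young). Of these lists 0, 3, 1 and 1 markers lay at or below the median signal. Of 5 erythroid and 6 cartilage markers 1 each fell, and of 4 Schwann cell markers 1 rose and 1 fell. Of 7 organ of Corti markers 1 rose, and of 7 endothelial and 6 neuronal markers 0 passed in limma. Mean signals also spread within an age. Those of the neuronal markers were 5.11 to 5.92 in old and 5.39 to 6.08 in young arrays. Those of the organ of Corti markers were 5.36 to 5.77 in old and 5.26 to 5.44 in young arrays. The part of other tissues in the results was not tested. Of the 5 marginal, 8 intermediate, 3 basal and 5 spindle and root cell markers, 0 passed in either direction in limma, at medians of 0.19, 0.13, 0.14 and 0.17. In a bulk sample, fewer cells of a type and less RNA per cell cannot be told apart.

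By brightest probe set, the signal of each fibrocyte marker differed between the ages by 0.33 log2 at most, and the only calls were for ceruloplasmin, in 2 of its 8 probe sets. Of the 29 probe sets, 2 were lower in old tissue past the threshold and 0 were higher (percent called over the whole array, 4.71, of which 2.84 lower and 1.86 higher). Of the 10 genes by their brightest probe set, 0 passed in limma, where 4.78% of all genes did. At an unadjusted p under 0.05 there were 11 of 29 probe sets, against 19.2% of all probe sets. The median difference was -0.19 over the 29 probe sets and 0.01 over all probe sets. It was -0.09 over the 15 probe sets of the genes other than Cp and Slc1a3, which supply 14 of the 29. By brightest probe set, the differences ran from -0.33 for Tgfbi to 0.07 for S100a1, with a median of -0.06.

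The direction was downward for 25 of the 29 probe sets, against 48.2% of all probe sets. All 3 old arrays lay below all 3 young arrays for 14 of the 29 (48.3%), where 11.3% of all probe sets did, and all old above all young for 1, where 12.5% did. Probe sets of one gene share that gene and its 6 RNA samples and are not separate evidence. At 1 probe set per gene, old lay wholly below young for 4 of 10 (Coch, Otos, Slc1a3 and Tgfbi), where 9.7% of all genes did, and wholly above young for 0, where 17% did. Without young replicate 2, 4 of the 29 probe sets were called, where 7.53% of all probe sets were. These were the 2 of Cp and 2 of Slc1a3.

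**Figure D1:**
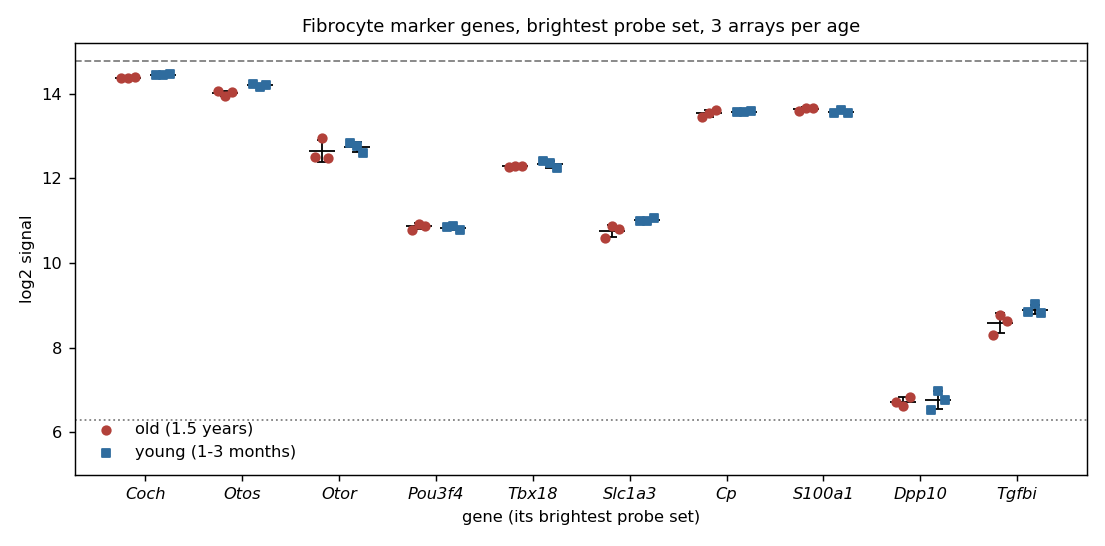
Log2 signal of the brightest probe set of each gene on each array (circles, 3 old arrays; squares, 3 young arrays; black bars, mean ± SD). The dashed line is the highest value in the table, 14.76, and the dotted line the median of all probe sets, 6.28. Coch and Otos lie close under the dashed line, and Dpp10 lies near the dotted one. Coch, Otos, Slc1a3 and Tgfbi have the old arrays below the young ones.

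Coch encodes cochlin, an abundant secreted matrix protein of the cochlea and vestibule, and mutations in the human gene cause a dominant hearing loss with balance symptoms. Its one probe set read 14.37, 14.36 and 14.39 in old and 14.44, 14.43 and 14.45 in young tissue. The old values lay below the young ones without overlap, and the gap was small (difference -0.07, SE 0.07, 95% interval -0.23 to 0.10, limma adjusted p = 0.709). The SD was 0.02 in old and 0.01 in young arrays, and limma draws the variance of each probe set towards a value shared by all. With a variance allowed to depend on signal and robust to outlying probe sets, the adjusted p was 0.302. Coch was the fourth brightest of 45037 probe sets on every one of the 6 arrays, 0.28 to 0.38 under the array maximum. Because its rank was the same on each array, a second quantile normalization, which sets values by rank, gave a difference of 0.

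Otos encodes otospiralin, a small secreted protein of fibrocytes whose loss in mice impairs hearing. Its probe set read 14.05, 13.93 and 14.03 in old and 14.22, 14.16 and 14.20 in young tissue. Old was lower on every array, by 0.19 on average (SE 0.08, 95% interval -0.36 to -0.02), and this did not pass (limma adjusted p = 0.215). With a variance that depends on signal and is robust to outlying probe sets, the same difference passed (adjusted p = 0.0284, in a fit that called 5 of the 29 probe sets and 5.94% of all), and over the other alternatives the adjusted p was 0.120 to 0.503. Otos ranked between 8 and 35 in brightness on the 6 arrays, 0.50 to 0.81 under the array maximum.

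Both genes sit where differences on the array are small. Only 28 probe sets had a mean signal of 14 or more, and 0 of them were called by limma, at differences of -0.19 to 0.05. Within these 28, Otos had the largest absolute difference and Coch the second, 0.07. The share called fell from 7.95% of probe sets between 8 and 10 to 5.20% between 10 and 12, 2.24% between 12 and 13 and 1.21% between 13 and 14. The median absolute difference fell with it, from 0.15 to 0.10, 0.06 and 0.05, and was 0.02 at 14 and over. The median SD within an age also fell, from 0.12 between 8 and 10 to 0.03 at 14 and over. The limma fit draws each variance towards a value shared by probe sets of every signal. Probe sets with a small SD are therefore harder to call, and how much of the fall in calls comes from this was not tested. Signal near the top of the scale can be compressed by saturated probes. Scanner values were not used here, so whether these probes were saturated was not tested, and a small difference there bounds the change in signal and not the change in RNA. Of the 29 probe sets, 5 had a mean of 13 or more and 10 a mean of 12 or more, and all 10 had 95% intervals within 0.5 of 0.

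**Figure D2:**
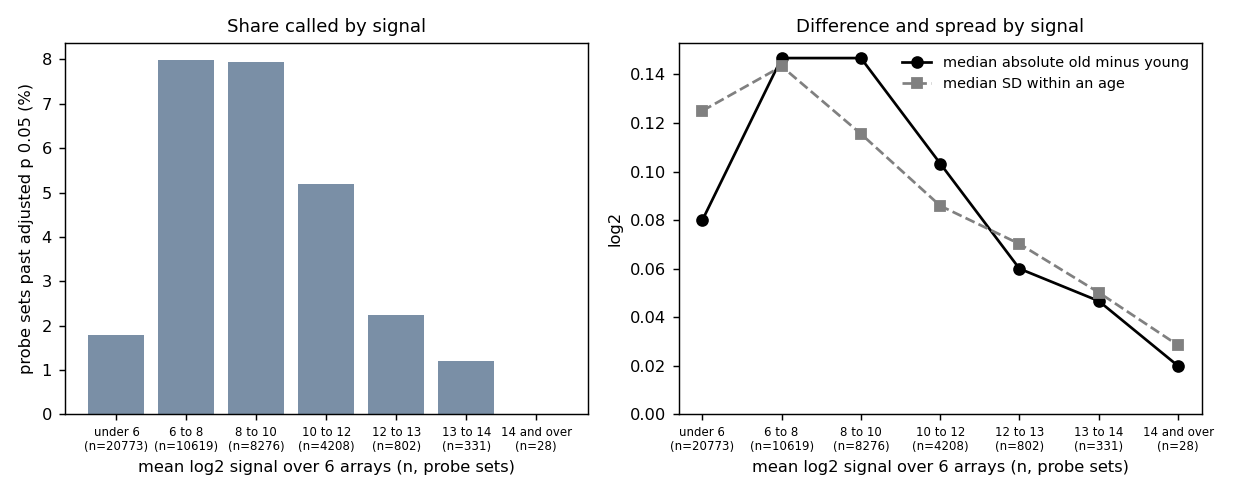
All 45037 probe sets by mean log2 signal over the 6 arrays. Left, the percentage called in old against young; right, the median absolute difference (circles) and the median SD within an age (squares), both in log2. The share called is 0 at 14 and over, where Coch and Otos lie, and both curves on the right are lowest there.

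Otor encodes otoraplin, a small secreted protein of the MIA family that was described in cochlear fibrocytes. It read 12.50, 12.95 and 12.48 in old and 12.83, 12.76 and 12.60 in young tissue. Old replicate 2 was the highest array of the 6 and the other old arrays were the lowest, so the groups overlapped (difference -0.09, SE 0.13, 95% interval -0.39 to 0.22, limma adjusted p = 0.816). Without old replicate 2 the difference was -0.24, short of the threshold. Of the other 3 genes of the MIA family, 0 passed in limma, and the 2 with the smallest p were Mia3 (10.79 ± 0.05 in old, 10.94 ± 0.04 in young, SD, n = 3) and Mia (9.35 ± 0.09 in old, 9.54 ± 0.24 in young).

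Tgfbi encodes a matrix protein with FAS1 domains that is induced by TGF-beta and binds collagens and integrins. Its brightest probe set, 1448123_s_at, read 8.31, 8.77 and 8.64 in old and 8.85, 9.02 and 8.83 in young tissue, with old below young throughout (difference -0.33, SE 0.12, 95% interval -0.61 to -0.04, limma adjusted p = 0.191). The other 3 probe sets had differences of -0.30, -0.35 and -0.43, so the 4 gave like values, and 0 of the 4 passed in limma while 2 had an unadjusted p under 0.05. Old replicate 1 was the lowest of the 6 arrays in all 4 probe sets. Without it, the differences were -0.20, -0.13, -0.07 and -0.29 in the order of 1448123_s_at, 1437463_x_at, 1456250_x_at and 1415871_at. The suffixes _s_at and _x_at mark probe sets that can read related transcripts as well.

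Among 12 further genes with FAS1, LCCL or von Willebrand A domains, the domain types found in Tgfbi and Coch, Vit fell (7.90 ± 0.03 in old, 8.36 ± 0.19 in young, limma adjusted p = 0.0463) and 0 rose, at a list median of 0.01. Vit, which encodes vitrin, did not pass after a second quantile normalization (adjusted p = 0.0566) or when any single array other than young replicate 2 was left out (up to 0.160). Of 11 measured TGF-beta pathway and target matrix genes, Thbs1, a matricellular protein that can activate latent TGF-beta, fell (6.13 ± 0.13 in old, 6.81 ± 0.15 in young, difference -0.68, limma adjusted p = 0.0124, and 0.0672 without old replicate 3). The list median was -0.07, and that of all genes was 0.03, with 2.33% of genes called lower and 2.45% higher.

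The mesenchymal transcription factors did not differ past the threshold by any probe set. Pou3f4, a POU-domain factor whose human gene underlies an X-linked hearing loss, read 10.79, 10.93 and 10.88 in old and 10.84, 10.87 and 10.78 in young tissue by 1422165_at (difference 0.04, 95% interval -0.14 to 0.22, limma adjusted p = 0.873). The other probe set, 1422164_at, read 9.70, 9.64 and 9.29 in old and 9.83, 9.83 and 9.81 in young tissue. Here old lay below young (difference -0.28, limma adjusted p = 0.216), mostly through old replicate 3, without which the difference was -0.15. Both probe sets are annotated to the same target sequence, and their differences were not shown to be unequal (adjusted p = 0.218 for the gap).

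Tbx18, a T-box factor that otic fibrocytes need to form in the mouse, read 12.27, 12.29 and 12.30 in old and 12.40, 12.35 and 12.24 in young tissue by 1429974_at. The groups overlapped (difference -0.04, 95% interval -0.22 to 0.14, limma adjusted p = 0.845). By 1449871_at it read 10.28, 10.33 and 10.44 in old and 10.25, 10.21 and 9.99 in young tissue, the only member probe set with old wholly above young (difference 0.20, limma adjusted p = 0.305). Of 16 other mesenchymal transcription factors, Prrx1 fell (7.75 ± 0.01 in old, 8.09 ± 0.08 in young, limma adjusted p = 0.0465) and 0 rose, at a list median of 0.10. Over all genes, 2.33% were called lower and 2.45% higher. The Prrx1 call did not pass with the replicate block (adjusted p = 0.0722) or with a robust variance that depends on signal (0.0585). It also did not pass on leaving out any array except young replicate 2 (adjusted p up to 0.183).

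Slc1a3 encodes GLAST, a sodium-coupled transporter that clears glutamate and is also found in cochlear supporting cells. Its brightest probe set, 1426340_at, read 10.60, 10.87 and 10.80 in old and 11, 10.99 and 11.07 in young tissue. Old was below young throughout (difference -0.26, SE 0.09, 95% interval -0.47 to -0.05, limma adjusted p = 0.155). The next in brightness, 1452031_at and 1443749_x_at, both differed by -0.21. The dim 1426341_at, at 6.44 ± 0.03 in old and 6.52 ± 0.08 in young, differed by -0.08.

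The remaining probe sets of Slc1a3 had wider gaps. Probe set 1440491_at read 5.31, 5.39 and 4.99 in old and 6.66, 5.87 and 5.84 in young tissue (difference -0.89, SE 0.21, limma adjusted p = 0.0532). It lies below the median signal of the array, 6.28, where detection was not examined. Probe set 1439072_at read 8.25, 8.09 and 7.99 in old and 9.44, 8.31 and 8.68 in young tissue (difference -0.70, SE 0.24, limma adjusted p = 0.155). In both, young replicate 1 was the highest array, and without it the differences were -0.63 and -0.39. Without young replicate 2 they were -1.02 and -0.95, and both passed (limma adjusted p = 0.0426 and 0.0364). Both also passed with array weights (adjusted p = 0.0209 and 0.0423), where 9.95% of all probe sets did. Beyond these settings they parted. Probe set 1440491_at passed in 7 of 12 alternatives. Among them were a second quantile normalization (adjusted p = 0.0497), median centring (0.0446), cyclic loess (0.0428) and the replicate block (0.0343). A robust variance that depends on signal was another (0.0321). This probe set did not pass on leaving out any single array except young replicate 2 (adjusted p up to 0.187). Probe set 1439072_at passed in 2 of 13. These 2 are each annotated to a target sequence of their own, and the other 4 have none listed. The mean of the 6 probe sets differed by -0.39 (adjusted p = 0.0691). Among 10 measured genes of glutamate and glutamine transport and conversion, 0 passed in limma, and the list median was -0.10. The smallest p belonged to Slc38a1, a glutamine transporter, at 10.99 ± 0.05 in old and 11.23 ± 0.11 in young, and to Slc1a4, at 6.62 ± 0.09 in old and 6.80 ± 0.08 in young.

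Cp encodes ceruloplasmin, a copper-carrying ferroxidase that oxidises iron for export. It exists as a secreted form and as a membrane-anchored form made by alternative splicing at the 3′ end. The brightest probe set, 1417494_a_at, read 13.45, 13.54 and 13.60 in old and 13.56, 13.56 and 13.59 in young tissue. The groups overlapped (difference -0.04, SE 0.08, 95% interval -0.22 to 0.14, limma adjusted p = 0.857). The dimmer probe set 1441326_at read 7.45, 7.97 and 7.91 in old and 9.81, 9.22 and 9.32 in young tissue. Every old array was more than a log2 unit below every young array (difference -1.67, SE 0.18, 95% interval -2.09 to -1.26, limma adjusted p = 0.00315), and the old signal was 0.314 of the young one. Probe set 1417496_at read 10.27, 10.34 and 10.03 in old and 11.17, 11.02 and 10.91 in young tissue. It fell as well (difference -0.82, SE 0.11, 95% interval -1.07 to -0.57, limma adjusted p = 0.00640), with an old signal 0.566 of the young one. Both calls were kept in all 13 alternatives, and leaving out single arrays gave -1.79 to -1.49 and -0.88 to -0.73.

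The other probe sets of Cp lay between these and 0. Probe sets 1448735_at, 1417497_at and 1448734_at differed by -0.28, -0.23 and -0.18, each with old wholly below young, and 1417495_x_at and 1455393_at differed by -0.09 and -0.01 with overlap. Of these 5, 0 passed in limma, and 2 had an unadjusted p under 0.05. Probe set 1448735_at, at 11.33 ± 0.06 in old and 11.60 ± 0.04 in young, came nearest (limma adjusted p = 0.0824). It passed with a robust variance that depends on signal (adjusted p = 0.0215) and among probe sets above the median signal (0.0460). The mean of the 8 probe sets, 11.44 in old and 11.86 in young, differed by -0.41 and passed in a limma fit over gene means (adjusted p = 0.0145), where 4.97% of genes did.

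Whether the probe sets of a gene changed alike was tested on each array's signal minus that of the gene's brightest probe set, in a limma fit over 16752 probe sets, a comparison added after the values were seen. Of the 19 member probe sets that are not the brightest of their gene, 2 differed from it in their change, where 4.27% of all did. Both were of Cp. Probe set 1441326_at minus 1417494_a_at was -6.0 to -5.57 in old and -4.34 to -3.75 in young tissue, a change of -1.63 relative to it (SE 0.18, adjusted p = 0.00528). Probe set 1417496_at minus 1417494_a_at was -3.57 to -3.18 in old and -2.68 to -2.39 in young tissue, a change of -0.78 (SE 0.13, adjusted p = 0.0236). The first held without any single array (adjusted p up to 0.0395). The second did not pass without old replicate 1, old replicate 3, young replicate 1 or young replicate 3 (adjusted p of 0.0590, 0.0885, 0.0673 and 0.0844). The number called over the array also turned on single arrays, at 24 to 1155. In the annotation, 6 of the 8 probe sets of Cp, 1417496_at among them, share 1 target sequence, and 1441326_at and 1455393_at have a target of their own. RefSeq lists 4 curated and 2 predicted transcripts of Cp. Which of them each probe set reads was not determined, since probe positions were not used here. The Gapdh 3′ excess was 1.26 to 1.45 in old and 1.07 to 1.25 in young arrays, while that of Actb overlapped between the ages. Among young arrays, replicate 1 had the largest Gapdh excess, 1.25, and the highest signal of 1441326_at and 1417496_at. Among old arrays, replicate 1 had the largest, 1.45, and the lowest signal of 1441326_at but not of 1417496_at. The part of the 3′ excess in these differences was not tested. The reference, 1417494_a_at, had a mean signal of 13.55. Between 13 and 14 the median absolute difference of all probe sets was 0.05. The part of signal compression in these gaps was not tested.

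**Figure D3:**
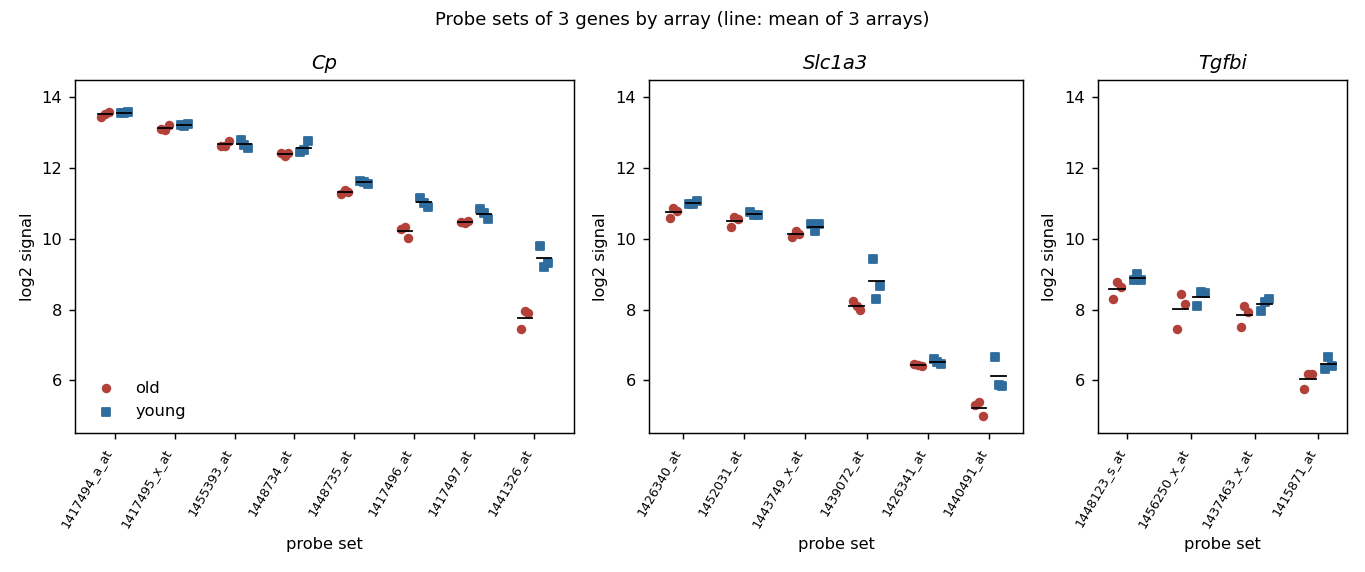
Log2 signal of each probe set of Cp, Slc1a3 and Tgfbi on each array (circles, old; squares, young; line, mean of 3 arrays), ordered by brightness within a gene. Old and young are level at the bright probe sets of Cp and wide apart at 1441326_at, and old lies below young at 1440491_at of Slc1a3, while the 4 probe sets of Tgfbi show gaps of -0.43 to -0.30.

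Of 17 measured genes of iron and copper handling other than Cp, 2 fell and 0 rose, at a list median of -0.02. The shares over all genes were 2.33% called lower and 2.45% higher. Heph, which encodes the membrane ferroxidase hephaestin and is a relative of Cp, read 4.86, 4.87 and 4.74 in old and 6.21, 6.40 and 5.66 in young tissue (difference -1.27, SE 0.17, limma adjusted p = 0.00681). All old values were below all young ones, the call held on leaving out any array, and 5 of the 6 values were below the median signal of the array. Ltf, the iron-binding lactotransferrin of neutrophil granules, was in the marrow myeloid list too, at 6.30 ± 0.19 in old and 7.05 ± 0.25 in young (limma adjusted p = 0.0260, and up to 0.109 without old replicate 1, old replicate 3 or young replicate 3).

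S100a1 encodes a calcium-binding protein of the EF-hand type. It read 13.59, 13.66 and 13.65 in old and 13.54, 13.60 and 13.55 in young tissue by 1419814_s_at, with a small overlap (difference 0.07, SE 0.07, 95% interval -0.10 to 0.24, limma adjusted p = 0.702). By 1417421_at the difference was 0.05 (95% interval -0.13 to 0.23). S100a1 was the only gene of the 10 with every probe set above 0. Of 13 other S100 genes, S100a4 rose, and S100a8 and S100a9 fell, at a list median of 0.03. Among all genes, 2.45% were called higher and 2.33% lower. S100a4, a protein of motile and mesenchymal cells, read 6.03 ± 0.15 in old and 5.16 ± 0.36 in young (limma adjusted p = 0.0268). All its values, 4.75 to 6.17, lay below the median signal of the array, 6.28. S100a8 and S100a9, the calprotectin subunits of neutrophils, read 8.05 ± 0.77 and 8.18 ± 0.73 in old and 9.83 ± 0.43 and 9.80 ± 0.33 in young (limma adjusted p = 0.0304 and 0.0303), beside the marrow markers given above. The S100a4 call did not pass without any one of old replicates 1, 2 and 3 or young replicate 3 (adjusted p up to 0.0860). The S100a8 and S100a9 calls did not pass without old replicate 1, old replicate 3, young replicate 2 or young replicate 3, nor that of S100a9 without young replicate 1 (adjusted p up to 0.128).

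Dpp10 encodes a peptidase-like protein without enzyme activity that serves as an auxiliary subunit of Kv4 potassium channels. It read 6.72, 6.62 and 6.83 in old and 6.54, 6.97 and 6.76 in young tissue by 1436087_at, and 5.76 ± 0.07 in old and 5.85 ± 0.09 in young by 1436661_at. The groups overlapped in both, with differences of -0.03 (95% interval -0.30 to 0.24) and -0.09 (95% interval -0.28 to 0.10). Both probe sets lay near the median signal of the array, at the 55.9th and 43.4th percentiles, so by signal Dpp10 was not set apart from most probe sets, and the data do not bear out its label as a marker with clear signal in this tissue. Presence calls were not used here. By contrast, the brightest probe sets of Coch, Otos, Cp, S100a1, Otor and Tbx18 lay above the 98th percentile, and those of Slc1a3 and Pou3f4 above the 93rd. That of Tgfbi lay lower than these, at the 77.4th percentile. Probe brightness depends on probe sequence as well as on RNA, so these percentiles place signals on the array's scale and do not rank the genes by RNA. Of 11 genes for the Kv4 channels, their KChIP partners and other DPP proteins, 0 passed in limma, at a median of 0.02. The smallest p belonged to Dpp4 (9.84 ± 0.15 in old, 9.48 ± 0.17 in young) and Kcnd2 (3.94 ± 0.15 in old, 4.13 ± 0.12 in young).

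**Figure D4:**
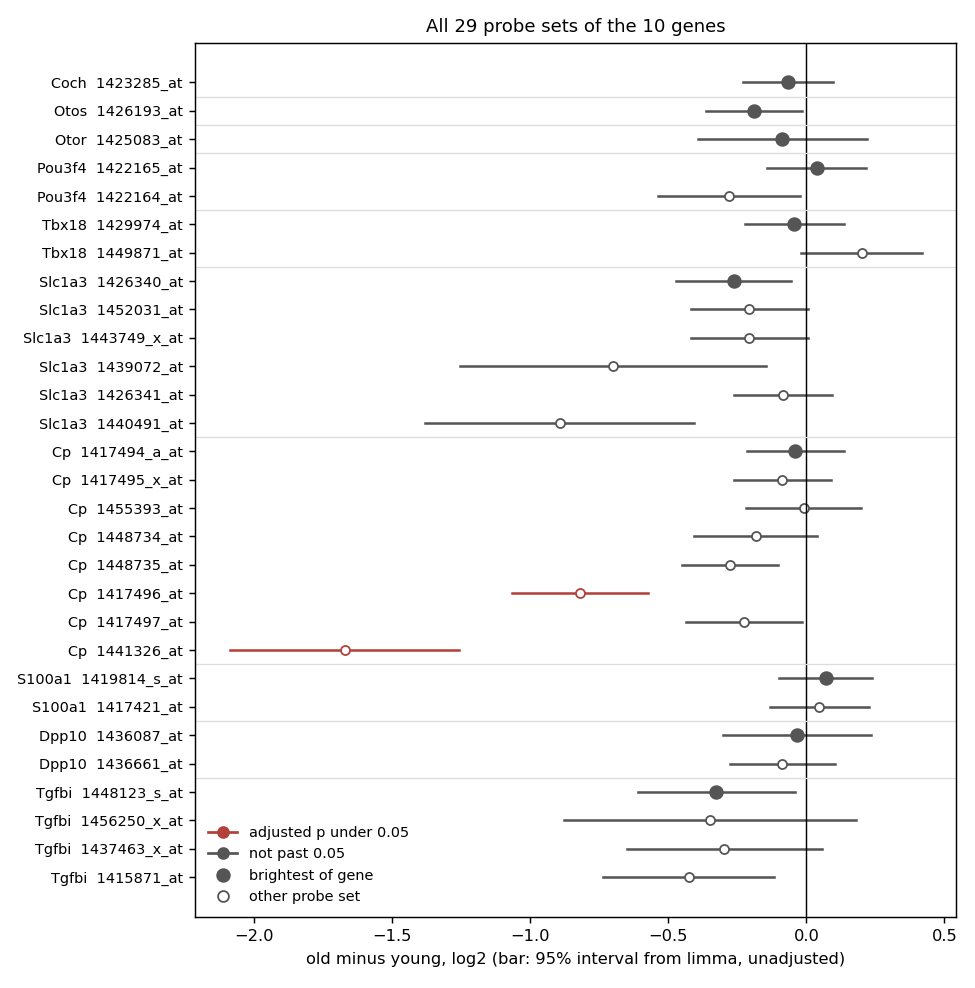
Old minus young in log2 for the 29 probe sets, with 95% intervals from limma (filled, the brightest probe set of a gene; open, its other probe sets). The 2 called probe sets, both of Cp, are at -1.67 and -0.82, and the 10 filled points lie between -0.33 and 0.07.

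Of 20 measured genes known from spiral ligament fibrocytes, 2 fell, 0 rose and 18 did not pass, at a list median of 0.01. The shares over all genes were 2.33% called lower and 2.45% higher. Aqp1, the water channel of type III fibrocytes, read 9.82, 9.61 and 9.49 in old and 10.55, 10.55 and 10.47 in young tissue (difference -0.88, SE 0.10, limma adjusted p = 0.00350). Ccn2, the matricellular connective tissue growth factor, read 11.42, 11.65 and 11.88 in old and 12.89, 12.58 and 12.60 in young tissue (difference -1.04, SE 0.13, limma adjusted p = 0.00589). Old and young did not overlap for either gene, and both calls held in all 13 alternatives. Both genes are also expressed by other cells of the wall, and the mural cell markers given above moved the same way, whose part in the fall was not tested. The gap junction genes Gjb2 and Gjb6 read 13.66 ± 0.05 and 13.61 ± 0.03 in old and 13.51 ± 0.06 and 13.60 ± 0.03 in young, and the cotransporter gene Slc12a2 read 13.95 ± 0.04 in old and 13.95 ± 0.01 in young. Old lay wholly above young for Gjb2 (limma adjusted p = 0.373). The gap junction gene Gja1 went the other way, at 8.82 ± 0.27 in old and 9.33 ± 0.14 in young. Its old arrays lay wholly below the young ones (limma adjusted p = 0.0768). Of these genes, chosen after their values were seen, 0 passed in limma.

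Whether the members shared one profile over the 6 arrays was not tested, since they were not correlated with each other. The 3 with the widest spread by brightest probe set were Tgfbi, Otor and Slc1a3, with SDs of 0.24, 0.19 and 0.17. Across 6 arrays, the genes most like Tgfbi in Pearson's r were Pcdhb7, Hsf2 and Adcy1 (0.991, 0.988 and 0.978). Those most like Otor were Calb2, Hs6st2 and Abi3bp (0.960, 0.951 and 0.854). Those most like Slc1a3 were Ggact, Gper1 and Polr3f (0.991, 0.990 and 0.990). The candidates were 2572 or 2573 genes above the median signal with an SD of at least 0.2, so members with a smaller SD could not appear. Such values are descriptions of 6 arrays that share the age difference.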

How the data were processed

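Total RNA from microdissected lateral wall was labelled with a 3′ IVT kit, per the labels' protocols. Affymetrix Expression Console, RMA and MAS5 are named in the submitters' processing notes without role or version. The authors deposited a table of 45101 probe sets by 6 arrays in log2 units, rounded to 2 decimals, with a range of 2.66 to 14.76. Which of RMA and MAS5 made it is not given in the sources used here. The kit reads mainly 3′ ends, and scaling between arrays would remove a shift of most genes. Detection above background and scan batch were not analysed here. The number of arrays limits the precision.

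Removing 64 control probe sets left 45037, of which 34945 had 1 gene symbol in GEO's platform annotation, 932 had several and 9160 were unnamed here. All 29 member probe sets matched RefSeq by Entrez identifier, and 0 symbols differed. A gene's brightest probe set stood for it in lists. Of 208 list genes, 194 were measured. Age was the only term in limma 3.58.1 (R 4.3.3), with no trend, and the threshold was 0.05. The members, lists and tests were chosen with earlier results of these data known. List genes were named by the smallest p, up to 2 in each direction, and most-alike genes for the 3 most variable members. On simulated data with 200 of 45037 probe sets changed per draw in old against young, limma found 28.6% of changes of 0.5 log2. It found 83.4% of changes of 1 and 98.3% of 2, with 3.98% of calls false. In the measured data 2119 probe sets were called, more than were changed in a draw, so these rates need not hold there. Alternatives were other normalizations, a filter on dim probe sets, other variance models, the replicate block, a fit to gene means, and leaving out each array.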

Additional observations from a re-analysis of the deposited data

How the results depend on the processing

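The 2 called Cp probe sets were called in every alternative run for them. Of the 29 member probe sets, 5 were called with an intensity trend and robust variance (adding Otos, 1448735_at of Cp and 1440491_at of Slc1a3), 4 with array weights, 3 with the replicate block and 2 to 4 on leaving out single arrays, against 2. Over all probe sets the count was 4480 with array weights, 1932 with the replicate block and 515 to 3393 without single arrays, against 2119, lowest without old replicate 3 and highest without young replicate 2. Whether the replicate numbers pair the samples is not known. Same-numbered arrays deviated with correlations of 0.14, 0.08 and 0.01, and differently numbered ones with -0.11 to 0.07. Such weak values from few arrays cannot decide it. Differences near 0 turned sign, all without passing. Cp probe set 1455393_at was 0.065 with array weights and -0.065 to 0.055 without single arrays, Dpp10 probe set 1436087_at was -0.14 to 0.073 without single arrays, and the mean of the probe sets was -0.12 for Pou3f4 and 0.078 for Tbx18. The number of probe sets that changed unlike the brightest of their gene was 1442 with array weights and 24 to 1155 without single arrays, against 715. The cause of these shifts was not tested, the smaller number of arrays included. Signals near the array maximum and near its median limit what can be said of Coch, Otos and Dpp10.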
